A study of Mus musculus with 12 samples.

Results

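The tumors compared here were 4 injected with GLA-SE and 4 injected with the emulsion alone (SE), 8 of the 12 tumors of the study, and they were chosen by their sample titles. Both groups received a stable emulsion, so the comparison asks what the TLR4 agonist GLA, called G100 by the study when formulated in this emulsion, adds to the emulsion. All 12 tumors grew from A20 cells, a mouse B-cell lymphoma line, of which 5000000 were implanted under the skin of female Balb/c mice that the methods give as 7 to 8 weeks old. From about 7 days after implantation each tumor received 3 injections, 1 every other day, and it was taken 2 h after the last. A GLA-SE injection held 10 µg GLA in 50 µl of 2% stable emulsion, the SE tumors had the emulsion without GLA at a volume and strength the labels do not give, and 4 tumors injected with PBS served as the untreated reference. The labels tie each tumor to a separate mouse, and all tumors come from 1 cell line. RNA from whole tumors was counted with barcoded probes for 770 genes, the mouse PanCancer Immune panel of the nCounter system, 20 of them reference genes. The other 750 genes were compared.

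GLA is a synthetic form of the lipid A of bacterial endotoxin. It is bound by TLR4 together with its partner MD-2 (Ly96), with CD14 handing the lipid over, and the receptor signals through the adaptor MyD88 to NF-kB and inflammatory cytokines and through the adaptor TRIF (Ticam1) to type I interferon. Interferons act, in part through the factor IRF1, on chemokine, antiviral and antigen presentation genes. In a tumor these products are known for drawing in and arming T cells and natural killer (NK) cells, while the emulsion can by itself attract myeloid cells. The results are ordered by these roles, followed by the markers of the cells that a whole tumor can hold.

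Between 1186487 and 1612415 probes were counted in a GLA-SE tumor and between 810260 and 1268512 in an SE tumor, and all 8 tumors were scaled to 12 reference genes. The tumor SE-4 stood apart. The geometric mean of the 12 reference genes was 715 counts in SE-4 against 1136 to 2116 in the other 7 tumors, while its total count of 816604 was close to the 810260 of SE-2, and after scaling it was the highest of the 4 SE tumors for 546 of the 750 genes (241 before scaling). Its gene content differed as well. The markers of endothelium and fibroblasts summed to 4202, 4968, 28191 and 120266 normalized counts in SE-1 to SE-4, and to 19788 to 30122 in the GLA-SE tumors, and each of the 13 markers was higher in SE-4 than in any other of the 8 tumors. The 5 mast cell markers did the same, with sums of 100.1, 101, 483 and 2552 in SE-1 to SE-4 against 230 to 397 in the GLA-SE tumors. Cfd, the complement factor adipsin that fat cells secrete, was counted at 72.0, 68.4, 1761 and 63736 in the SE tumors. SE-3 lay between SE-4 and the other SE tumors in both marker sums and in Cfd, so the emulsion group was not uniform. Fewer cells of a type and less RNA per cell cannot be told apart in whole tumors. The counts of calls in GLA-SE against SE are therefore given with and without SE-4. Some lists and single genes are given for the 8 tumors only. The part that the composition of SE-4 or its low reference counts play in a result was not tested.

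**Figure D1:**
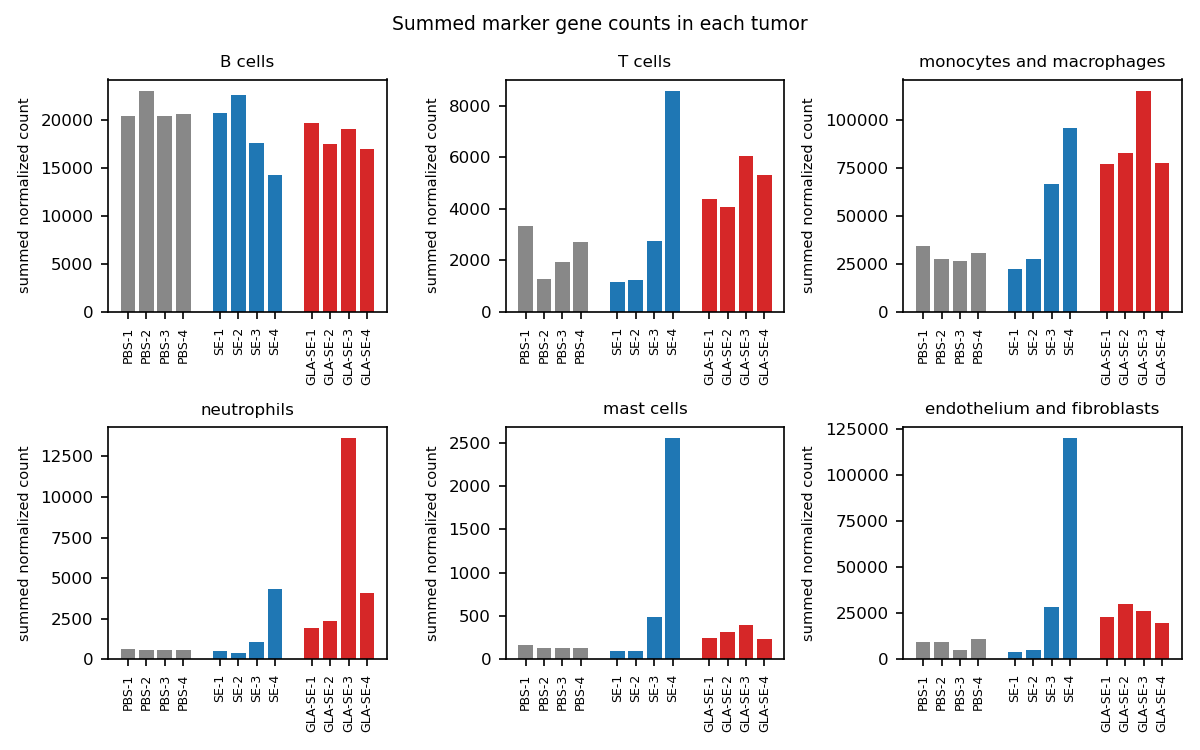
Summed normalized counts of the marker genes of 6 cell classes (vertical axes, starting at 0) in each of the 12 tumors, with PBS tumors in grey, SE tumors in blue and GLA-SE tumors in red. SE-4 carries the highest sums for T cells, mast cells and endothelium with fibroblasts, and the lowest for B cells, while GLA-SE-3 is highest for neutrophils.

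The labelled tumor type was checked against its markers. The 12 B-cell markers summed to 17030 to 19674 normalized counts in the GLA-SE tumors, 14254 to 22632 in the SE tumors and 20398 to 23106 in the PBS tumors. Ms4a1, which encodes CD20, was counted at 7052, 5903, 6197 and 5606 in GLA-SE-1 to GLA-SE-4 and at 8071, 9180, 6798 and 4605 in SE-1 to SE-4, so the B-cell identity of the lymphoma was present in each of the 8 tumors.

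In the 8 tumors, 16 of 750 genes (2.13%) were higher in GLA-SE than in SE at an edgeR quasi-likelihood adjusted p under 0.05, and 0 were lower. The 4 GLA-SE tumors lay above the 4 SE tumors, without overlap, for 117 genes (15.6%), and for 0 genes did they all lie below. Without SE-4, the same test called 107 genes higher (14.3%) and 0 lower, and the groups did not overlap for 290 genes (38.7%) with GLA-SE above and for 4 with GLA-SE below. All 16 genes were among the 107. An unadjusted p under 0.05 was reached by 152 genes in the 8 tumors and by 292 without SE-4. The median log2 fold change of the 750 genes was 0.30 with all 8 tumors and 0.68 without SE-4, and the changes below are to be read against these medians. The median normalized count of the panel was 296, 345, 458 and 306 in GLA-SE-1 to GLA-SE-4 and 121, 109, 250 and 435 in SE-1 to SE-4. The level of the whole panel relative to its reference genes was thus itself higher in GLA-SE than in SE-1 to SE-3. SE-4, however, lay above GLA-SE-1, GLA-SE-2 and GLA-SE-4.

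The numbers of calls rested on single tumors and on the scaling. Of the tumors left out in turn, the count of 16 became 2 without GLA-SE-2, 4 without GLA-SE-4, 5 without SE-1, 6 without SE-2 and 4 without SE-3, and the count of 107 became 67, 26 and 24 without GLA-SE-1, GLA-SE-2 and GLA-SE-4, 2 without SE-1, 1 without SE-2 and 426 without SE-3. When each tumor was scaled to its panel median in place of the reference genes, the median log2 fold change moved to -0.46 in the 8 tumors and to -0.48 without SE-4, 0 genes were called in the 8 tumors, and 19 higher and 180 lower without SE-4. DESeq2 with its own size factors called 48 higher and 25 lower in the 8 tumors, and 85 higher and 75 lower without SE-4, and quantile normalization with limma called 0 in the 8 tumors and 13 higher and 3 lower without SE-4. In the 8 tumors all 16 genes kept a log2 fold change above 0 under the panel median scaling, and 6 of them kept groups without overlap. Without SE-4, Irf1 and Itgal turned below 0 under this scaling.

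**Figure D2:**
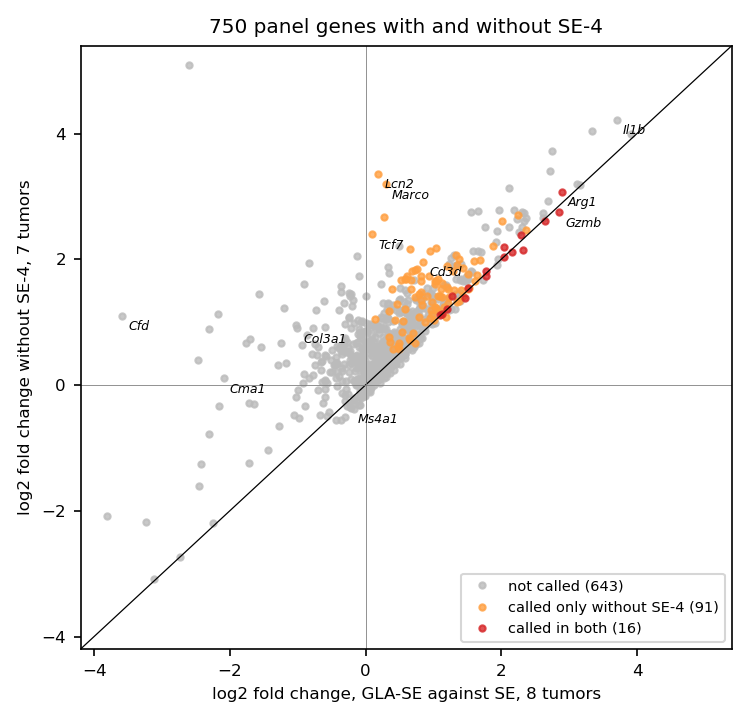
Log2 fold change of each of the 750 genes, GLA-SE against SE, with all 8 tumors (horizontal axis) and without SE-4 (vertical axis), where the line marks equal values. The 16 genes called in both lie close to the line, while most of the 91 called only without SE-4 lie above it, and Cfd and Cma1 fall far to its left.

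The 16 genes were chemokines that bind CXCR3, interferon-response genes, cytotoxic effectors, myeloid genes and 2 genes of T-cell costimulation and adhesion. Each of them separated the 4 GLA-SE from the 4 SE tumors, as did 15.6% of all 750 genes. The exact permutation p was 0.0286 for each, the smallest that 70 assignments of the tumors allow. Because the 16 were selected by their adjusted p in these same tumors, this p adds no separate support. In 15 of the 16, every GLA-SE tumor was also above every PBS tumor, the exception being Mmp9. The median normalized count of the panel was itself 296 to 458 in the GLA-SE tumors and 119 to 165 in the PBS tumors. The share of all genes with this separation from PBS was not counted, so it is not shown to be particular to these genes. In the values that follow, tumors are given in the order of their numbers, and ± is the standard error of the log2 fold change.

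**Figure D3:**
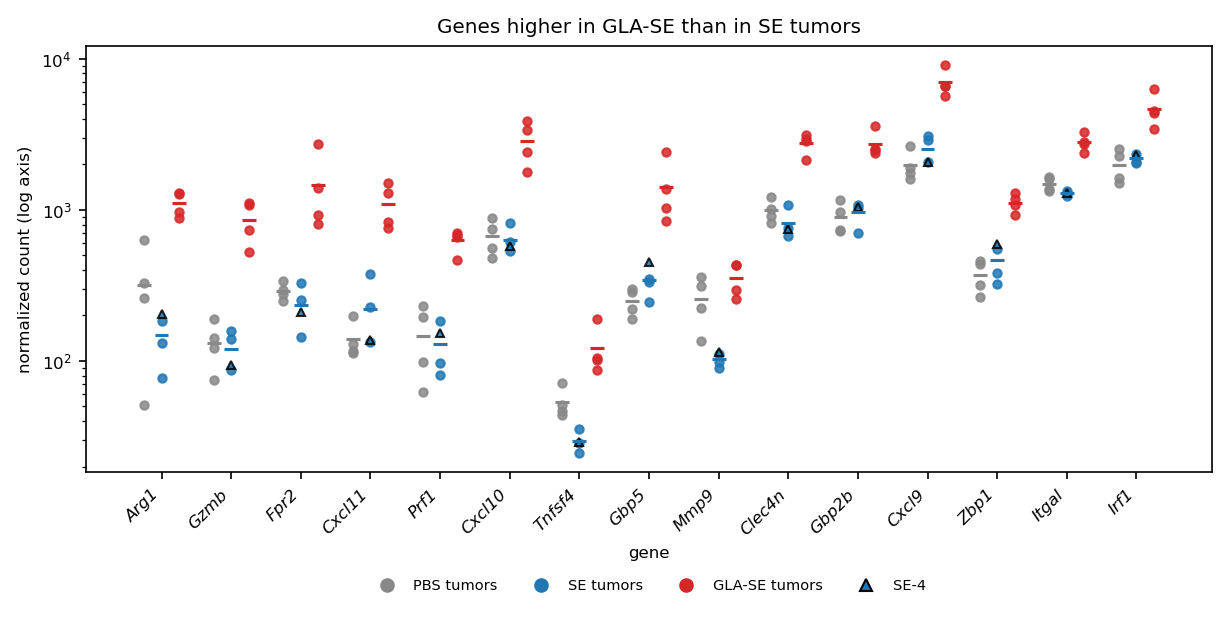
Normalized counts (log axis) of 15 of the 16 genes called in GLA-SE against SE, with a point for each tumor and a bar at the mean of each group of 4. The GLA-SE tumors (red) lie above the SE tumors (blue, with SE-4 as a triangle) for every gene shown, and SE-4 lies among or near the other SE tumors.

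Of the 4 genes of the CXCR3 axis, the 3 ligands rose, beside 2.13% of all 750 genes, and the receptor did not pass the test. Cxcl10, which calls activated T cells and NK cells to inflamed tissue, was counted at 1768, 3377, 3852 and 2398 in the GLA-SE tumors and at 822, 532, 615 and 575 in the SE tumors. The log2 fold change was 2.16 ± 0.29, a 4.48-fold rise, with an edgeR adjusted p of 0.0113. The lowest GLA-SE tumor was above the highest SE tumor, SE-1. Cxcl11 was at 759, 1510, 1285 and 835 against 379, 133, 228 and 137, and its log2 fold change was 2.32 ± 0.42 (edgeR adjusted p = 0.0284). Cxcl9, induced mainly by interferon-gamma, was at 5701, 9109, 6566 and 6556 against 2921, 2064, 3083 and 2058, and its log2 fold change was 1.46 ± 0.23 (edgeR adjusted p = 0.0157). Leaving out SE-4 hardly moved these 3 values, to 2.12 for Cxcl10, 2.15 for Cxcl11 and 1.38 for Cxcl9. With each of the 8 tumors left out in turn, however, Cxcl10 lost its call in 2 of the 8 fits and Cxcl11 and Cxcl9 in 5 each. The receptor gene Cxcr3 had a log2 fold change of 0.31 ± 0.56 (adjusted p = 0.844) with all 8 tumors and of 1.04 ± 0.37 (adjusted p = 0.0906) without SE-4. The median of the list was 1.81, against 0.30 for all genes tested. Under panel median scaling none of the 4 genes was called in either fit. The list median was then 0.75 in the 8 tumors and 0.46 without SE-4, against -0.46 and -0.48 for all genes tested. TMM scaling called none of the 3 ligands in the 8 tumors.

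Interferon-response genes rose in part. In the list of 12 genes of the interferon-gamma axis 3 were higher in the 8 tumors and 9 did not pass, beside 2.13% of all 750 genes called, and the median log2 fold change was 1.17. Without SE-4, 7 of the 12 were called, beside 14.3% of all genes, and panel median scaling called none in either fit. Gbp5, a guanylate-binding protein that promotes inflammasome assembly, was at 839, 1374, 2407 and 1036 normalized counts in the GLA-SE tumors against 347, 247, 333 and 452 in the SE tumors, and its log2 fold change was 2.04 ± 0.37 (edgeR adjusted p = 0.0284). Its relative Gbp2b was at 2386, 3567, 2511 and 2501 against 1036, 700.3, 1072 and 1043, and its log2 fold change was 1.51 ± 0.22 (edgeR adjusted p = 0.0123). Irf1, a transcription factor induced by interferon-gamma, was at 3425, 4404, 6319 and 4491 against 2346, 2039.9, 2075 and 2292, and its log2 fold change was 1.09 ± 0.21 (edgeR adjusted p = 0.039). The GLA-SE tumors were thus separated from the SE tumors by a narrow margin for Irf1 relative to the spread within GLA-SE, where GLA-SE-3 was the highest. Of the 28 antiviral interferon-stimulated genes 2 rose in the 8 tumors and 5 without SE-4, beside the same shares of all genes, with list medians of 0.63 and 1.09, and panel median scaling again called none. Zbp1, a sensor of Z-form nucleic acid, was at 922, 1176, 1289 and 1073 against 383, 323, 550.2 and 595, and its log2 fold change was 1.27 ± 0.25 (edgeR adjusted p = 0.0405), a call that held only without SE-4 when each of the 8 tumors was left out in turn. Under the panel median scaling Irf1 and Itgal had log2 fold changes of 0.03 and 0.09 in the 8 tumors and of -0.23 and -0.18 without SE-4, while TMM scaling, quantile normalization and DESeq2's own size factors kept them above 0 without a call, at 0.41 to 0.61 for Irf1 and 0.46 to 0.65 for Itgal in the 8 tumors.

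The sequence before the start of these genes is shown for 4 of them because the members that moved together include known interferon targets. RefSeq windows on GRCm38.p6 were matched for 8 of the 16 genes, namely Gzmb, Fpr2, Prf1, Cxcl10, Gbp5, Gbp2b, Cxcl9 and Irf1. The missing entries include Arg1, Cxcl11, Tnfsf4, Mmp9, Clec4n, Zbp1 and Itgal. The 250 bases before the annotated start were searched on both strands for the interferon-stimulated response element core GAAANNGAAA, the interferon-gamma activated site TTCNNNGAA and the kappaB consensus, which NF-kB binds, and both the genes and the motifs were chosen after the values were seen. Capitals mark a match, and no matches overlap in the windows shown.
Cxcl10, chr5:92348890-92349139, minus strand: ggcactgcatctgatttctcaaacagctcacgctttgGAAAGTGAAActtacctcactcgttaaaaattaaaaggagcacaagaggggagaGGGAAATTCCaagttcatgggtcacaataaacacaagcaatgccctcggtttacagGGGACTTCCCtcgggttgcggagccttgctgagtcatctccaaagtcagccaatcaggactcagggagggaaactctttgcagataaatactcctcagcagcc
Gbp5, chr3:142496684-142496933, plus strand: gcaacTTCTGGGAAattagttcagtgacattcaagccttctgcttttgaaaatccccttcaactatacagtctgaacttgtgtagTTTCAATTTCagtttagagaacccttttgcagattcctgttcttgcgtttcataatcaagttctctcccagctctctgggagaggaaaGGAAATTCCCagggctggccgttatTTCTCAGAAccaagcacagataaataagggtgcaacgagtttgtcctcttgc
Gbp2b, chr3:142594597-142594846, plus strand: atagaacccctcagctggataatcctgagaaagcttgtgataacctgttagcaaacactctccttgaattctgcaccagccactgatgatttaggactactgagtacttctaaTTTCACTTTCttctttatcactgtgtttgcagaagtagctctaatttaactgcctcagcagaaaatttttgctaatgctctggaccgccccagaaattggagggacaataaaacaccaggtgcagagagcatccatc
Irf1, chr11:53769764-53770013, plus strand: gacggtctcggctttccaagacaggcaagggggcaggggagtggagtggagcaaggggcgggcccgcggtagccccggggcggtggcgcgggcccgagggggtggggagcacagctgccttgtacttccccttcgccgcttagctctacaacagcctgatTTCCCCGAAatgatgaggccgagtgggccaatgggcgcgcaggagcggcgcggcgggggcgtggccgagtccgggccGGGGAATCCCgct
The Cxcl10 window held the response element core 213 bases before the start and kappaB matches at 159 and 103 bases. The Gbp5 window held all 3 motifs, with the response element core at 165 bases, activated sites at 245 and 52 bases and a kappaB match at 77 bases. The Gbp2b window held the response element core at 137 bases, and the Irf1 window shown an activated site at 90 bases and a kappaB match at 13 bases. RefSeq gave Irf1 another window, chr11:53770223-53770472, which held none of the 3 motifs. The Fpr2 window held an activated site at 77 bases, and none of the 3 motifs was in the windows of Gzmb, Prf1 and Cxcl9. Among 32851 windows of the same length, 2.98% held the response element core, 7.02% the activated site and 3.9% the kappaB consensus, and among the 676 windows of panel genes these shares were 6.8%, 10.8% and 9.32%. A match describes letters and not a bound site.

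Of the 7 cytotoxic effector genes measured, Gzmb and Prf1 were called higher in GLA-SE in the 8 tumors and 5 were not called. Gzmb encodes granzyme B, the protease that killer lymphocytes inject into their targets, and it was counted at 526, 741, 1113 and 1072 in the GLA-SE tumors against 157, 86.6, 139.8 and 94.0 in the SE tumors. The log2 fold change was 2.85 ± 0.35, a 7.2-fold rise, with an edgeR adjusted p of 0.00855. Prf1 encodes perforin, which opens the way for it, and was at 468, 681, 657 and 704 against 97.7, 80.2, 184 and 154, and its log2 fold change was 2.29 ± 0.34 (edgeR adjusted p = 0.0123). The groups were separate for both genes, and the highest SE tumor was SE-1 for Gzmb and SE-3 for Prf1. Gzmb was called whichever of the 8 tumors was left out, and Prf1 for 5 of the 8. Gzma, granzyme A, was at 733, 1241, 1058 and 2213 against 193, 113, 339 and 661. Its groups did not overlap, yet it passed the test only without SE-4. Its log2 fold change was 2.01 ± 0.58 (adjusted p = 0.114) in the 8 tumors and 2.61 ± 0.52 (adjusted p = 0.0243) without SE-4. The 2 of 7 effectors called with all tumors stand beside 2.13% of all 750 genes and the 4 called without SE-4, the other being Ctsw, beside 14.3%. Under the panel median scaling without SE-4, 3 of the 7 were called higher and 1 lower, beside 19 higher and 180 lower of all 750 genes. The 7 NK-cell markers summed to 1391, 1269, 1614 and 1442 in the GLA-SE tumors and 347, 471, 812 and 925 in the SE tumors, without overlap, and the T-cell markers, given below, were higher in GLA-SE than in SE-1 to SE-3 and not than in SE-4. The part of these cells in the rise of Gzmb and Prf1 was not tested.

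Among myeloid genes the test called Arg1, Fpr2, Clec4n and Mmp9. Arg1 encodes arginase, which breaks down arginine and is made by suppressive and alternatively activated myeloid cells, and its counts were 888, 1273, 969 and 1289.9 in the GLA-SE tumors and 184, 77.5, 131 and 204 in the SE tumors. The log2 fold change was 2.89 ± 0.34, a 7.42-fold rise, with an edgeR adjusted p of 0.00855. It was also called whichever of the 8 tumors was left out. The PBS tumors spread widely for Arg1, at 327, 261, 51.3 and 632. Clec4n, the fungal pattern receptor dectin-2, was at 2128, 3145, 2966 and 2869 against 762, 675, 1072 and 746, its log2 fold change was 1.77 ± 0.22 (edgeR adjusted p = 0.00855), and it lost its call only without GLA-SE-2. Fpr2, a formyl peptide receptor of neutrophils and monocytes, was at 802, 926, 2746 and 1387 against 253, 144, 326 and 209.6, and its log2 fold change was 2.65 ± 0.46 (edgeR adjusted p = 0.0246). Mmp9, a gelatinase, was at 294, 433, 429.6 and 256 against 112, 90.3, 97.8 and 114, and its log2 fold change was 1.77 ± 0.30 (edgeR adjusted p = 0.0237). For Mmp9 the PBS tumors, at 226, 357, 136 and 315, overlapped the GLA-SE tumors and were each above every SE tumor, although the difference of SE from PBS did not pass the test (adjusted p = 0.275). Of the other myeloid list members, 9 of 10 neutrophil markers and all 11 markers of monocytes and macrophages did not pass with 8 tumors, where 2.13% of all 750 genes were called. The list medians were 0.49 and 0.38, beside 0.30 for all genes tested. Without SE-4, 2 of the 10 (Fpr2 and Lcn2) and 1 of the 11 (Marco) were called, beside 14.3% of all genes. The medians were then 1.45 and 1.21, beside 0.68. Panel median scaling without SE-4 called 3 neutrophil markers higher and 1 lower, and 1 monocyte and macrophage marker higher. It called 19 higher and 180 lower of all 750 genes. The monocyte and macrophage markers summed to 77414, 82709, 115515 and 77551 in the GLA-SE tumors and 22265, 27572, 66653 and 96154 in the SE tumors. The neutrophil markers summed to 1917, 2344, 13625 and 4098 against 515, 409, 1075 and 4308. The part that the number of such cells plays in the myeloid calls was not tested.

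The remaining 2 genes act between lymphocytes and the cells they meet. Tnfsf4 encodes OX40 ligand, a costimulator of T cells, and was counted at 102, 86.6, 190.1 and 105 against 28.7, 24.6, 35.2 and 28.9, and its log2 fold change was 2.04 ± 0.38 (edgeR adjusted p = 0.0304). Its deposited counts in the SE tumors were only 47, 27, 31 and 16, near the 20 counts that the study used as its threshold. Itgal encodes the integrin chain CD11a, with which leukocytes adhere, and was the most even of the 16 within the SE group, at 2392, 2729, 3291 and 2794 against 1332, 1228, 1289 and 1298, and its log2 fold change was 1.12 ± 0.16 (edgeR adjusted p = 0.0123). With 1 of the 8 tumors left out, the call was lost in 4 of 8 fits for Gbp2b, in 5 for Fpr2, Gbp5, Irf1, Itgal and Mmp9, and in 6 for Tnfsf4.

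Without SE-4 a further 91 genes were called, all higher in GLA-SE. In all 91 the GLA-SE tumors lay above SE-1, SE-2 and SE-3, beside 38.7% of all 750 genes. In 39 they lay above SE-4 too, beside 15.6% of all 750 genes. SE-4 was the highest SE tumor for 77 of the 91, beside 546 of all 750 genes. It was above the lowest GLA-SE tumor for 52 and above every GLA-SE tumor for 28, for which the shares of all genes were not counted. For the 52 genes the difference is thus from SE-1 to SE-3 and not from the whole group. Because the 91 were called only once SE-4 was left out, a high SE-4 was partly built into their selection. With 4 tumors against 3 an exact test cannot go below 0.0571, so these calls rest on the fit over all genes.

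**Figure D4:**
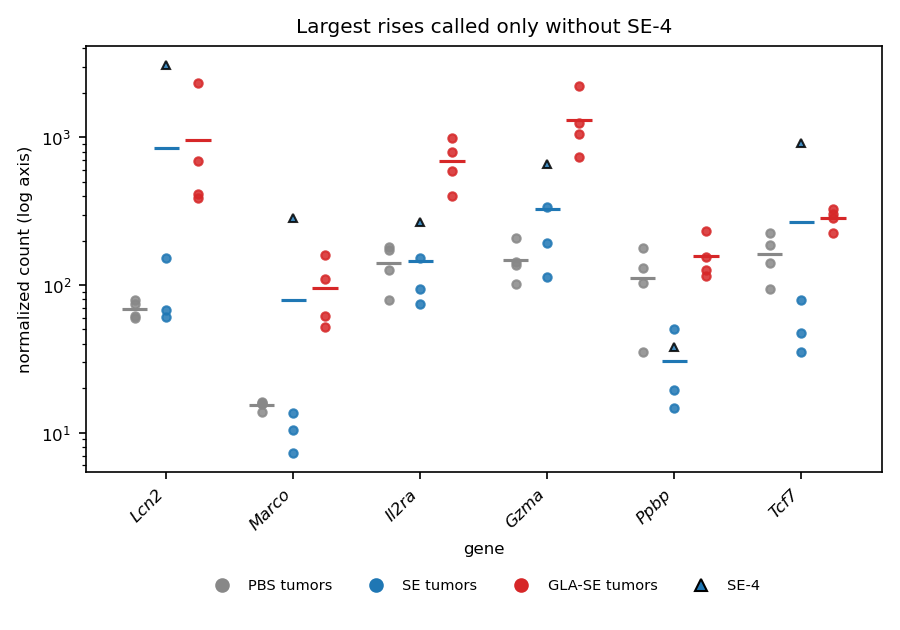
Normalized counts (log axis) of 6 of the genes with the largest rises that were called only without SE-4, with a point for each tumor and a bar at the mean of each group of 4. SE-4 (triangle) is above all GLA-SE tumors for Lcn2, Marco and Tcf7, and below them for Il2ra, Gzma and Ppbp.

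T-cell genes were among them. Of the 11 T-cell markers, 7 (Cd3d, Cd3e, Cd3g, Cd5, Cd6, Cd8a and Cd8b1) rose without SE-4, beside 14.3% of all 750 genes, and 0 with it, and the list median moved from 0.67 to 1.69, beside 0.30 and 0.68 for all genes tested. Their sums were 4387, 4071, 6034 and 5327 in the GLA-SE tumors and 1151, 1234, 2746 and 8589.8 in the SE tumors, so SE-4 held the most T-cell transcript of the 8. Cd3d, a chain of the T-cell receptor complex, was at 657, 572, 900 and 802 against 157, 159.6, 249 and 1074, and the log2 fold change was 0.84 ± 0.64 (adjusted p = 0.537) in the 8 tumors and 1.96 ± 0.27 (adjusted p = 0.0157) without SE-4. Cd4 did not pass in either, with log2 fold changes of 0.09 ± 0.60 (adjusted p = 0.961) and 0.95 ± 0.40 (adjusted p = 0.126). Under the panel median scaling none of the 11 was called without SE-4.

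Genes of naive and of activated T cells were also among those called without SE-4. Tcf7, a transcription factor of naive and memory T cells, was at 329, 284, 227 and 301 against 35.4, 47.4, 79.6 and 909. It was higher in SE-4 than in any GLA-SE tumor. Without SE-4 its log2 fold change was 2.40 ± 0.36 (adjusted p = 0.0157), against 0.10 ± 0.99 (adjusted p = 0.977) with it. Il2ra, the interleukin-2 receptor chain that activated and regulatory T cells carry, was different in that SE-4 stayed below every GLA-SE tumor, at 400, 587, 993 and 795 against 93.4, 74.8, 152 and 266. Its log2 fold change was 2.25 ± 0.48 (adjusted p = 0.0584) in the 8 tumors and 2.70 ± 0.42 (adjusted p = 0.0157) without SE-4.

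NK-cell and inhibitory receptors followed the same pattern of calls. Of 7 NK-cell markers, 3 (Eomes, Klrd1 and Klrg1) rose without SE-4, beside 14.3% of all 750 genes, and 0 with it. Panel median scaling called none of the 7. Klrd1, the CD94 chain of NK receptors, was at 486, 408, 415 and 404 against 87.9, 136, 259 and 318, and although its groups did not overlap its log2 fold change of 1.10 ± 0.41 (adjusted p = 0.192) did not pass in the 8 tumors, while it was 1.41 ± 0.38 (adjusted p = 0.0482) without SE-4. Of 10 coinhibitory receptors and ligands, Cd160, Lag3 and Pdcd1lg2 rose without SE-4, again beside 14.3% of all genes, where panel median scaling called 0 higher and 1 lower. Lag3, an exhaustion receptor of T cells, had log2 fold changes of 1.16 ± 0.27 (adjusted p = 0.0758) and 1.25 ± 0.24 (adjusted p = 0.0243) with and without SE-4. Cd274, which encodes PD-L1, was at 1954, 2828, 5214 and 2566 against 1259.8, 867, 1603 and 1079, groups that did not overlap, and passed the test in neither, with 1.39 ± 0.34 (adjusted p = 0.0808) and 1.34 ± 0.38 (adjusted p = 0.0566).

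The largest rise among the 107 genes called without SE-4 was in Lcn2, the iron-binding lipocalin of neutrophils and inflamed tissue. It was counted at 388, 414, 2351 and 689.8 in the GLA-SE tumors against 61.0, 67.5, 153 and 3094 in the SE tumors, so SE-4 exceeded even GLA-SE-3. Its log2 fold change was 0.19 ± 1.30 (adjusted p = 0.961) in the 8 tumors and 3.36 ± 0.81 (adjusted p = 0.0386) without SE-4. Marco, a scavenger receptor of macrophages, was at 110, 52.0, 61.2 and 160.3 against 10.4, 7.3, 13.6 and 286, with 0.30 ± 1.17 (adjusted p = 0.931) and 3.19 ± 0.54 (adjusted p = 0.018). Ppbp, a platelet chemokine and CXCR2 ligand, was at 114, 156, 127 and 232 against 50.0, 14.6, 19.3 and 38.0, a difference that SE-4 did not blur, with 2.36 ± 0.50 (adjusted p = 0.0584) and 2.47 ± 0.54 (adjusted p = 0.0298). The PBS tumors were at 103, 178, 35.3 and 129.6 for Ppbp and overlapped both groups.

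**Figure D5:**
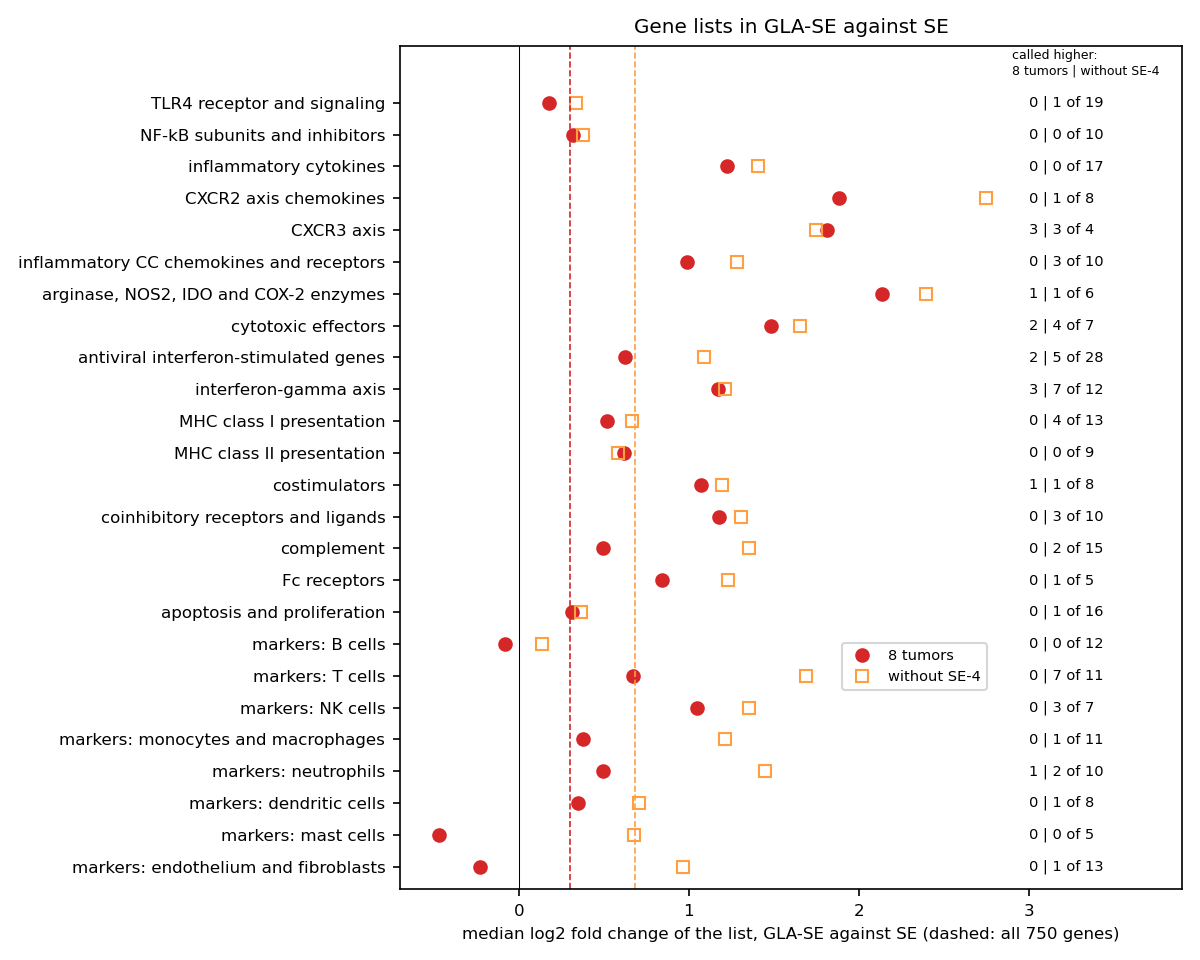
Median log2 fold change of each gene list, GLA-SE against SE, with all 8 tumors (filled circles) and without SE-4 (open squares), beside the number of members called higher. The dashed lines mark the medians of all 750 genes, 0.30 and 0.68, and the lists of T-cell, mast cell and endothelial and fibroblast markers move furthest to the right of their 8-tumor values when SE-4 is left out, along with the complement and CXCR2 lists and those of neutrophils and macrophages.

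The receptor of GLA and its adaptors did not pass the test. Of 19 genes of TLR4 and its signaling, 0 were called in the 8 tumors, with a list median of 0.18. Without SE-4, 1 was called, the kinase gene Ikbke, beside 14.3% of all 750 genes. The panel median scaling without SE-4 called 0 of the 19 higher and 10 lower, beside 180 of all 750 genes lower. Tlr4 itself was at 591, 669, 477 and 642 in the GLA-SE tumors and 452, 417, 623 and 882 in the SE tumors, and its log2 fold change was 0.00 ± 0.28 (adjusted p = 0.999). Ly96, at 663, 767, 1235 and 688 against 555, 516, 684 and 623, had 0.50 ± 0.25 (adjusted p = 0.316). The adaptors Myd88 and Ticam1 had log2 fold changes of 0.37 ± 0.37 (adjusted p = 0.651) and 0.30 ± 0.28 (adjusted p = 0.633). Cd14, the co-receptor, was at 338, 453, 6619.7 and 1089.5 against 115, 96.7, 391 and 689, and its mean rested on GLA-SE-3, with 2.72 ± 1.10 (adjusted p = 0.219). Of 10 NF-kB subunits and inhibitors 0 were called with or without SE-4, and the median was 0.32 and 0.38. Panel median scaling without SE-4 called 6 of the 10 lower, with a median of -0.92, beside -0.48 for all 750 genes. Nfkb2, a subunit of the noncanonical arm, was at 8115, 8424, 12936 and 8998 against 8619, 8193, 7527 and 4289.

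Inflammatory cytokines differed widely between the GLA-SE tumors themselves. The 17 cytokine genes summed to 2984, 4744, 27478 and 6449 normalized counts in GLA-SE-1 to GLA-SE-4 and to 1700.5, 1320.4, 4165 and 4814 in SE-1 to SE-4. GLA-SE-3 was the highest of the 8 tumors for 15 of the 17. Across the panel, GLA-SE-3 was the highest GLA-SE tumor for 478 of the 750 genes. Its panel median was 458 normalized counts, against 296 to 345 in the other GLA-SE tumors. Its lead was thus not limited to cytokines. None of the 17 was called, with medians of 1.22 in the 8 tumors and 1.41 without SE-4. Il1b, which encodes interleukin-1 beta, was at 383, 1154, 11517 and 2223 against 231, 79.3, 304 and 564, and the log2 fold change was 3.70 ± 1.10 (adjusted p = 0.122). The same tumor led Ptgs2, the inducible cyclooxygenase COX-2, at 129, 265, 3847 and 386 against 76.3, 38.3, 103 and 88.6, where the groups did not overlap and the log2 fold change was 3.92 ± 1.12 (adjusted p = 0.112). It also led S100a8, an alarmin of neutrophils, at 505, 716, 7592 and 1625 against 83.0, 56.5, 339 and 560.2. Ccl5, which draws T cells and monocytes, was at 2064, 1497, 14010.5 and 3152 against 925, 455, 868 and 2306, with 2.19 ± 0.81 (adjusted p = 0.192). Of the 8 genes of the CXCR2 axis, which recruits neutrophils, 0 passed in the 8 tumors. Cxcl1 ran from 27.5 to 711 within the GLA-SE group and from 8.55 to 148 within the SE group. The fold changes of Il1b and Ptgs2 were thus above those of all 16 called genes and did not pass the test, with values that spread over more than an order of magnitude within the GLA-SE group.

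Antigen presentation genes showed small separations. For 6 of 13 MHC class I genes and 6 of 9 class II genes the 8 tumors separated without overlap, beside 15.6% of all 750 genes, and 0 of either list were called in the 8 tumors. The class II invariant chain Cd74 was at 107622, 116323, 202852 and 110659 against 84978, 89408, 95125 and 80448, and the log2 fold change was 0.62 ± 0.27 (adjusted p = 0.244), and H2-Aa had 0.57 ± 0.25 (adjusted p = 0.246). Psmb8, a subunit of the immunoproteasome, was at 9514, 9892, 11509 and 9511 against 7709, 7551, 7587 and 6575, with 0.46 ± 0.16 (adjusted p = 0.158). The exact permutation p was 0.0286 for each of these 3, but their direction turned under the panel median scaling. Without SE-4, 4 of the 13 class I genes were called, namely the peptide transporter genes Tap1 and Tap2, Psmb10 and H2-Q10, beside 14.3% of all 750 genes. No class II gene was called in that fit. Panel median scaling without SE-4 called 0 higher in either list, and 3 class I and 2 class II genes lower, beside 180 of all 750 genes lower. The costimulators Cd40 and Cd83 were at 561, 679, 1626 and 696 and 1468, 1557, 4326 and 1519.8 in the GLA-SE tumors and at 534, 517, 543 and 445 and 1163, 827, 1616 and 2266 in the SE tumors, and neither passed. The groups did not overlap for Cd40, as for 15.6% of all 750 genes. Its exact permutation p of 0.0286 is the smallest possible and follows from that separation. The direction of Cd40 also turned under the panel median scaling of the 8 tumors.

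Complement, Fc receptor and stromal genes depended on SE-4. The 15 complement genes summed to 8898, 8285, 25100 and 109034 in SE-1 to SE-4 and to 26999.5 to 42893 in the GLA-SE tumors, with SE-4 the highest of the 8 tumors for 11 of them. Of the 15, 0 were called in the 8 tumors and 2 (C3 and Cfb) without SE-4, beside 2.13% and 14.3% of all 750 genes. C3, the central complement component, was at 8623, 11564, 11672 and 5912 against 2160.1, 2171, 4181 and 13010.3, and the log2 fold change was 0.81 ± 0.60 (adjusted p = 0.524) in the 8 tumors and 1.73 ± 0.35 (adjusted p = 0.0243) without SE-4. Cfd turned from -3.59 ± 2.05 (adjusted p = 0.376) to 1.10 ± 1.36 (adjusted p = 0.533). Col3a1, the type III collagen chain of fibroblasts, was at 11705, 14542, 13380.1 and 10711 against 1519, 1954, 16690.5 and 80852, and it had a log2 fold change of 0.91 ± 0.81 (adjusted p = 0.397) without SE-4 and a negative value (adjusted p = 0.678) with it. Its values in GLA-SE lay between those of SE-3 and of SE-1 and SE-2. Of the 13 endothelial and fibroblast markers, 12 passed in neither fit, the exception being Pecam1 without SE-4, where 14.3% of all 750 genes were called. The inhibitory Fc receptor gene Fcgr2b was at 5018, 6834, 8243 and 5952 against 3025, 2206, 3057 and 4484, groups without overlap, with 1.03 ± 0.26 (adjusted p = 0.0821) and 1.24 ± 0.22 (adjusted p = 0.0211). It was the 1 of 5 Fc receptor genes called without SE-4, again beside 14.3% of all genes.

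B-cell, survival and proliferation genes were mostly not called. None of the 12 B-cell markers was called with or without SE-4, and their medians of -0.08 and 0.14 were below the panel medians of 0.30 and 0.68. Panel median scaling without SE-4, which called 180 of all 750 genes lower, called 8 of the 12 lower. Of 16 apoptosis and proliferation genes, 0 were called in the 8 tumors and Bcl2 without SE-4, beside 2.13% and 14.3% of all 750 genes. Panel median scaling without SE-4 called 0 of the 16 higher and 8 lower. Myc was at 1839, 2015, 3281 and 2549 against 2267, 1878, 2342 and 2926. Bcl2l1, which encodes the survival protein Bcl-xL, was at 3161, 2889, 3152 and 2252 against 4106, 4603, 3879 and 2174. It was 1 of the 4 genes for which all GLA-SE tumors were below SE-1 to SE-3, and its log2 fold change without SE-4 was -0.55 ± 0.17 (adjusted p = 0.0638). The others, named after their values were seen, were Bcl6, Ccnd3 and Ulbp1, with log2 fold changes of -0.55, -0.32 and -0.52, and none of the 4 was called.

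The emulsion's own difference from PBS was measured on the same scale and shares the SE tumors with the comparison above. The edgeR test called 0 of 750 genes (0%), with 120 at an unadjusted p under 0.05. DESeq2 called 52 with the reference gene size factors and 9 with its own, the methods' t-test on log2 values called 1, and limma called 0. For the 16 genes higher in GLA-SE than in SE, the log2 fold change of SE against PBS ran from -1.32 for Mmp9 to 0.66 for Cxcl11, and 9 of the 16 were below 0. Beside the panel median of 0.50 in that comparison, the emulsion alone thus showed no rise of these genes that passed the test. Without SE-4 that panel median was 0.19, with 0 genes called and 68 at an unadjusted edgeR p under 0.05. With all SE tumors under panel median scaling it was -0.04. The values of the 16 genes are given with SE-4 included, and their dependence on it was not tested.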

How the data were processed

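Whole-tumor RNA of 12 tumors was measured on the nCounter mouse PanCancer Immune panel. The authors deposited counts of barcoded probes, whole numbers for 770 genes. The methods name nSolver for normalization, but the deposited counts are not normalized, since totals and reference genes differ between tumors. The assay has no alignment step, so the counts carry no coordinates.

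The 8 GLA-SE and SE tumors were grouped by their titles. The geNorm procedure dropped the least stable of the 20 reference genes in turn and kept 12 (the larger set of the pair with the smallest pairwise variation, 11 and 12), and counts were scaled to their geometric mean. The methods state an automatic selection without its rule, and the larger set was kept because it matches an earlier processing of these data. The 750 other genes were compared with the quasi-likelihood test of edgeR 4.0.16 (R 4.3.3) on unfiltered counts and no covariates, with Benjamini-Hochberg adjustment over 750 genes at 0.05. The same reference genes scaled the fit without SE-4 and the PBS tumors. Exact permutation tests were two-sided, over 70 assignments of 4 against 4. Normalized counts are the deposited counts after scaling. The precision of a gene is limited by its count, with 33 genes never reaching 20 counts in the 8 tumors, and by 4 tumors per group. On simulated data with 100 of 750 genes changed at each size, the fit called 7% of changes of 1 and 61% of changes of 2 on the log2 scale with 8 tumors, and 18% and 82% without SE-4, with 0 calls of the wrong sign. In each of these fits 2 unchanged genes were called. The simulation changed as many genes up as down and gave the test the scaling used to draw the counts. It therefore cannot show how often scaling turns a sign.

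The tumors, the 17 function lists, the 8 marker lists and the motifs were chosen with earlier results of these data known. Genes named are those called in the 8 tumors, the 10 largest rises without SE-4, the 2 members of each list with the highest mean count (not each is described) and Tlr4, Ly96, Cd14, Myd88 and Ticam1. A few of these genes are left out here. Other members of a list are named as called members, or after their values were seen. Alternatives were all 20 reference genes, panel median, TMM and quantile scaling, a filter of 20 counts in 4 tumors, limma 3.58.1, DESeq2 1.42.0, the methods' t-test, Benjamini-Yekutieli adjustment, 1 fit over all tumors, a replicate block and leaving out each tumor, and, chosen after seeing the data, 11 reference genes and no rescaling. Promoter windows were those of RefSeq on GRCm38.p6. Plots used Python 3.11.15 and matplotlib 3.10.9.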

Additional observations from a re-analysis of the deposited data

Results flagged for a closer look

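Among 138 sets of values searched (a named gene in 1 of the 2 groups), 10 held a tumor far from the other 3 of its group on the log2 scale, where about 6.9 are expected by chance at 1 in 20. In SE-4, Marco was at 286 normalized counts against 7.30 to 13.6 in the other SE tumors, and the immunoproteasome subunit Psmb8 lower at 6575 against 7551 to 7709. In GLA-SE-3, Cd74 was at 202852 against 107622 to 116323, the maturation marker Cd83 at 4326 against 1468 to 1557, lysozyme (Lyz2) at 102805 against 68874.5 to 73459 and the cytokine receptor gene Flt3 at 808 against 466 to 482. In GLA-SE-1, Prf1 was lower at 468 against 657 to 704 and Klrd1 higher at 486 against 404 to 415. Gbp2b was higher in GLA-SE-2, at 3567 against 2386 to 2511, and lower in SE-2, at 700.3 against 1036 to 1072. Prf1 and Gbp2b are genes called in the 8 tumors, and in both the groups remained apart with these tumors included.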

How the results depend on the processing

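With 8 tumors, the 16 calls became 18 with all 20 reference genes and with limma, 16 with the filter and with 11 reference genes, 14 with the methods' t-test, 3 with TMM, 0 with panel median scaling, quantile normalization or Benjamini-Yekutieli adjustment, 136 and 73 with DESeq2 under the reference gene and its own size factors, 85 with 12 tumors in 1 fit and 89 without rescaling, and 2 to 107 with 1 tumor left out. Without SE-4, the 107 calls became 18 with TMM, 16 with quantile normalization, 161 with limma (pseudocount 1), 309 with DESeq2 under the reference gene size factors, 284 in 1 fit with the PBS tumors, 0 with Benjamini-Yekutieli adjustment and 199 (19 higher, 180 lower) with panel median scaling, and 1 to 426 with a further tumor left out. SE against PBS gave 52 and 9 calls with the DESeq2 settings, 1 with the methods' t-test and 0 in the other settings. The causes of these changes were not tested.

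Whether equal replicate numbers pair the tumors was not settled. The deviations of equally numbered tumors correlated at -0.083, -0.12, 0.15 and -0.25, and those of unequally numbered tumors at -0.24 to 0.21. So few correlations cannot exclude a pairing. With the replicate block the 8-tumor calls fell to 0 (140 genes at an unadjusted p under 0.05) and those without SE-4 became 152. The block adds terms to a fit of few tumors, so these counts do not show whether the tumors were paired.

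Log2 values that turned below 0 and were called in at least 1 of the settings compared were, without SE-4 under panel median scaling, -0.18 for Itgal, -0.23 for Irf1, -1.08 for Irf3, -1.10 for Nfkb2, -1.26 for Chuk, -0.21 for Bst2, -0.43 for Ifngr1, -0.89 for Psmb8, -1.28 for Btla, -0.043 for Fcgr2b, -1.13 for Myc, -1.34 for Flt3, -0.92 for Tlr4 and -0.91 for Ticam1, and under DESeq2's own size factors -0.81 for Chuk, -0.016 for Ifngr1, -0.83 for Btla and -0.88 for Flt3. With panel median scaling in the 8 tumors the differences of mean log2 counts in the exact test turned to -0.37 for Psmb8, -0.26 for Cd74, -0.31 for H2-Aa and -0.16 for Cd40. Depth limits genes near 20 counts, such as Tnfsf4 and Ppbp in the SE tumors.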
